A study of Danio rerio with 6 samples.

Results

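The comparison described here set uninjected *tars*-/- zebrafish embryos against uninjected sibling embryos, across all genes with enough reads and with an emphasis on functions other than the amino acid response (AAR). Its members were the 19194 genes, of 34326 in the files, whose CPM (reads per 1000000 reads counted on genes) averaged 1 or more across the 6 libraries of the series. The *tars*-/- embryos were homozygous for a nonsense mutation in *tars* from a chemical mutagenesis screen, and the siblings, labelled WT, came from the same crosses. Whether heterozygous embryos were among the siblings, and how many embryos were pooled for a library, is not given in the sources used here. All embryos were taken whole at 36 hours post-fertilization (hpf). The authors grew embryos in egg water and used PTU to block pigment, but whether the sequenced embryos received PTU is not stated. The other 4 libraries of the series, from *tars*-/- and sibling embryos injected with a morpholino (an antisense oligonucleotide) against *gcn2* (*gcn2* MO) or *perk* (*perk* MO), are shown beside the uninjected pair. Each condition had 1 library, so no difference could be held against the spread between replicates, and no p-value is given.

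Threonyl-tRNA synthetase, the product of *tars*, loads threonine onto its tRNAs in the cytosol. When a synthetase is missing, uncharged tRNA can activate the kinase Gcn2, which phosphorylates the initiation factor eIF2α, lowers general translation and favours translation of the transcription factor Atf4. Atf4 and its partners raise genes for amino acid synthesis, amino acid uptake and tRNA charging, and this program is the AAR. Perk is another eIF2α kinase and responds to unfolded protein in the endoplasmic reticulum.

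*tars* itself was at 37.3 CPM in *tars*-/- embryos and 71.6 CPM in siblings, a ratio of 0.522 (95% interval 0.488 to 0.557). The intervals of ratios are exact (Clopper-Pearson), come from the read numbers and cover counting error only, not differences between embryos or RNA preparations. Its level was below that of each sibling library in all 3 *tars*-/- libraries, at 21.3 CPM against 68.1 CPM with *gcn2* MO and at 33.9 CPM against 95.9 CPM with *perk* MO. The paralog *tarsl2*, which codes for a further threonyl-tRNA synthetase, was at 11.4 CPM in *tars*-/- embryos and 11.2 CPM in siblings. Its ratio was 1.02 (0.889 to 1.17).

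At least 2-fold higher in *tars*-/- embryos were 213 genes, or 1.11% of those tested, and at least 2-fold lower were 109 genes, or 0.568%. The threshold was set on log2(CPM + 0.5), which understates the change of genes with few reads. Over all genes the median log2 ratio was −0.11, and edgeR's TMM scaling removed this shift and gave 262 higher and 58 lower genes. Thus 66.1% of the 2-fold genes were higher under CPM, 81.9% under TMM and 77.5% under upper-quartile scaling. It was 55.3% with a pseudocount of 0.1 CPM, and at a 1.5-fold threshold the lower genes were the majority, with 555 higher and 1059 lower (34.4% higher). The higher genes had a median level of 18.9 CPM over the 6 libraries, the lower ones 3.48 CPM and all genes 12.2 CPM. Of the 213 higher genes, 42 were in a list of 85 AAR genes and known Atf4 targets, and 57 were in that list or in those of cytosolic aminoacyl-tRNA synthetases, amino acid transporters and one-carbon enzymes. Outside these 4 lists were 156 higher genes, with a median level of 10.6 CPM, and all 109 lower genes. The lists were written from general knowledge, but with earlier results of these data known, and may be incomplete. They are thus not an independent reading of functions. Whether genes outside them are Atf4 targets was not tested.

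**Figure D1:**
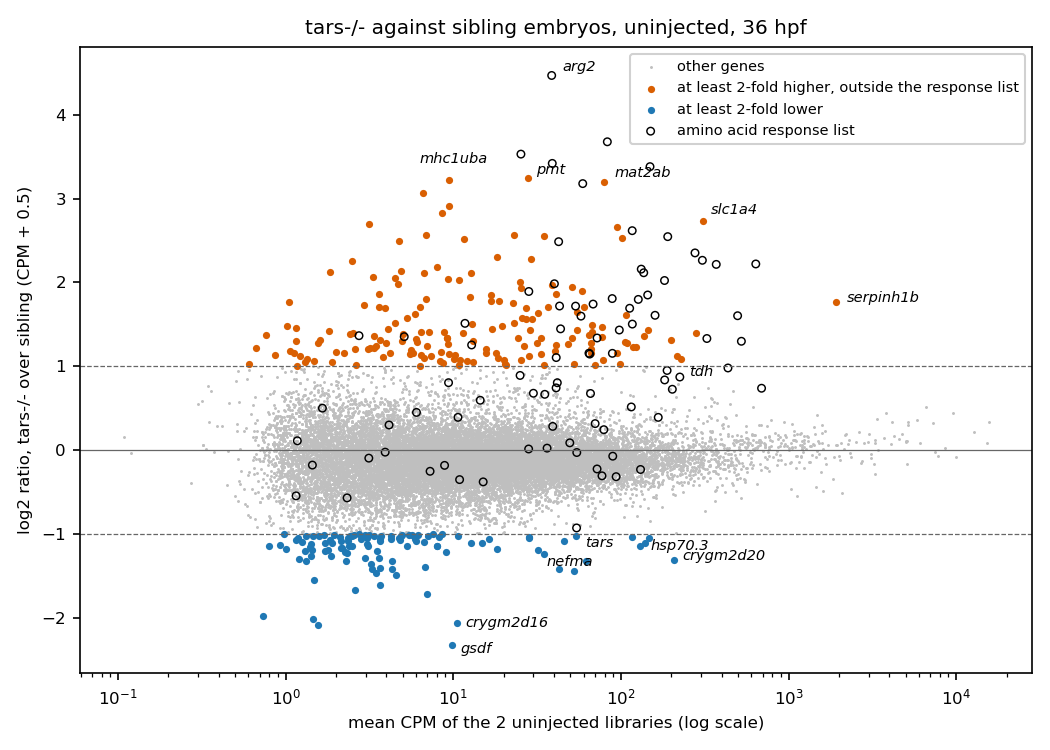
Log2 ratio of *tars*-/- to sibling embryos, uninjected (y axis, CPM + 0.5), against the mean CPM of both libraries (x axis, log scale); each point is a gene, and dashed lines mark 2-fold. The 213 higher genes spread over the whole range of levels up to *serpinh1b*, whereas the 109 lower genes crowd at the left, with *nefma*, *hsp70.3* and *crygm2d20* among the few abundant ones.

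The 4 injected libraries share no library with the uninjected pair, although a morpholino changes the embryos. Between *tars*-/- and sibling embryos that both had *perk* MO, 96 of the 156 higher genes outside the 4 lists were again at least 2-fold higher (61.5%, against 3.39% of all genes). With *gcn2* MO in both, 47 of the 156 were (30.1%, against 1.85% of all genes). By any amount, 121 of the 156 were higher in both injected pairs, but the share of all genes with this direction was not counted. Of the 109 lower genes, 16 were at least 2-fold lower with *perk* MO (14.7%, against 2.01% of all genes), 8 were with *gcn2* MO (7.34%, against 1.17%), and 0 were in both. However, 7 of the 109 were at least 2-fold higher with *gcn2* MO, as were 1.85% of all genes. With *perk* MO 1 was, against 3.39% of all genes. By any amount, 59 of the 109 were lower with *gcn2* MO and 74 with *perk* MO, and their median log2 ratios there were −0.11 and −0.27. In 157 of the 213 higher genes all 3 *tars*-/- libraries lay above all 3 sibling libraries, an order that 3.61% of all genes had. For the lower genes the opposite order was found in 31 of 109, against 4.65% of all genes. The uninjected pair that chose these genes is part of this order. Such counts are thus partly built in, and the shares of all genes are not a like comparison. The uninjected sibling library was the highest of all 6 libraries in 81 of the 109 lower genes, and the uninjected *tars*-/- library was the lowest in 55. Of the 213 higher genes, the uninjected sibling library was the lowest in 83 and the uninjected *tars*-/- library the highest in 50. These counts also rest on the libraries that chose the genes, and the shares of all genes were not counted.

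**Figure D2:**
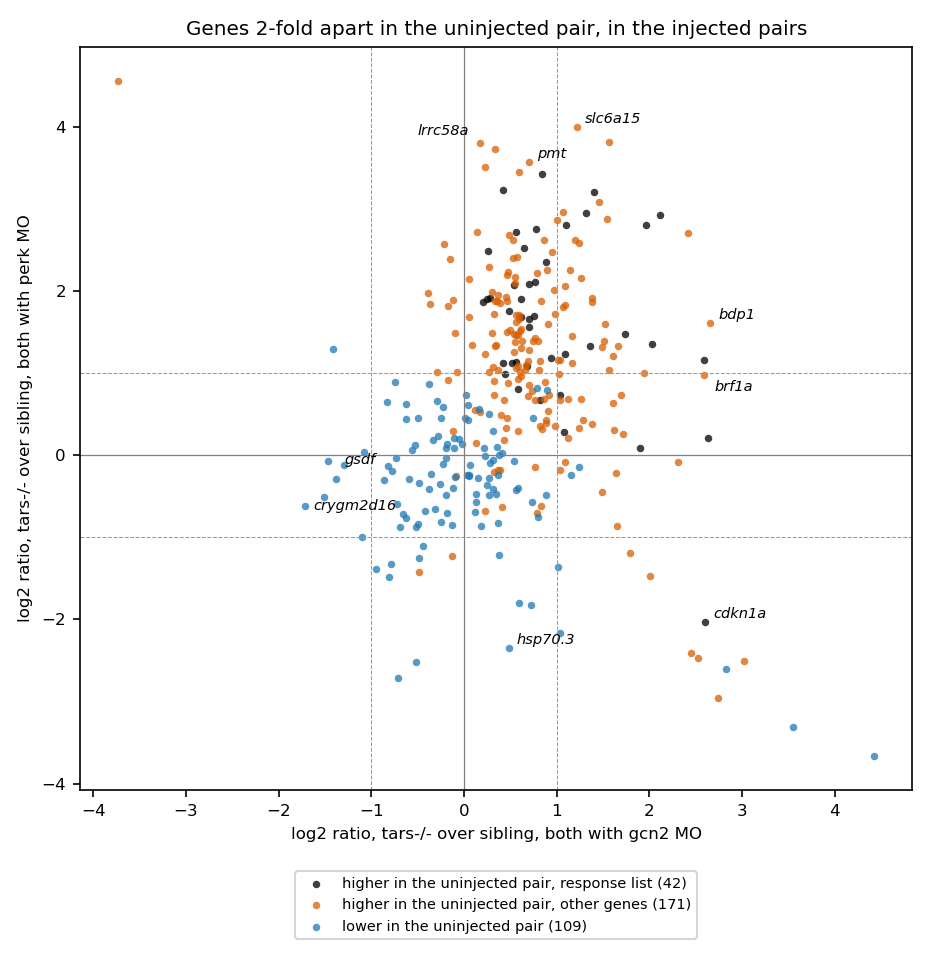
Genes at least 2-fold apart in the uninjected pair, placed by their log2 ratio of *tars*-/- to sibling embryos with *gcn2* MO (x axis) and with *perk* MO (y axis); dashed lines mark 2-fold. Most higher genes lie in the upper right quadrant, 177 of 213 being higher in both injected pairs, and the lower genes scatter around 0, with 38 of 109 lower in both. The shares of all genes with these directions were not counted.

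Functions were next read through 66 gene lists, each described by its median log2 ratio beside that of all genes (−0.11) and by its members at least 2-fold apart. In 61 of them the list median was within 0.25 of that of all genes, and 32 had no member at least 2-fold apart. The 5 lists farther away were the AAR list (median 0.98, 42 of 85 genes higher), the cytosolic synthetases (1.13, 13 of 20 higher), the serine, glycine and folate one-carbon enzymes (0.38, 10 of 34 higher), the gamma crystallins of the lens (−0.89, 11 of 26 lower) and the mitochondrially encoded genes (−0.44, none of 13 at least 2-fold apart). Only some of the other lists had such members, and these are described below by role. Over all genes 1.11% were at least 2-fold higher and 0.568% lower, the shares to set beside each list count. How many of the 66 lists would hold no such member at these shares was not counted.

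**Figure D3:**
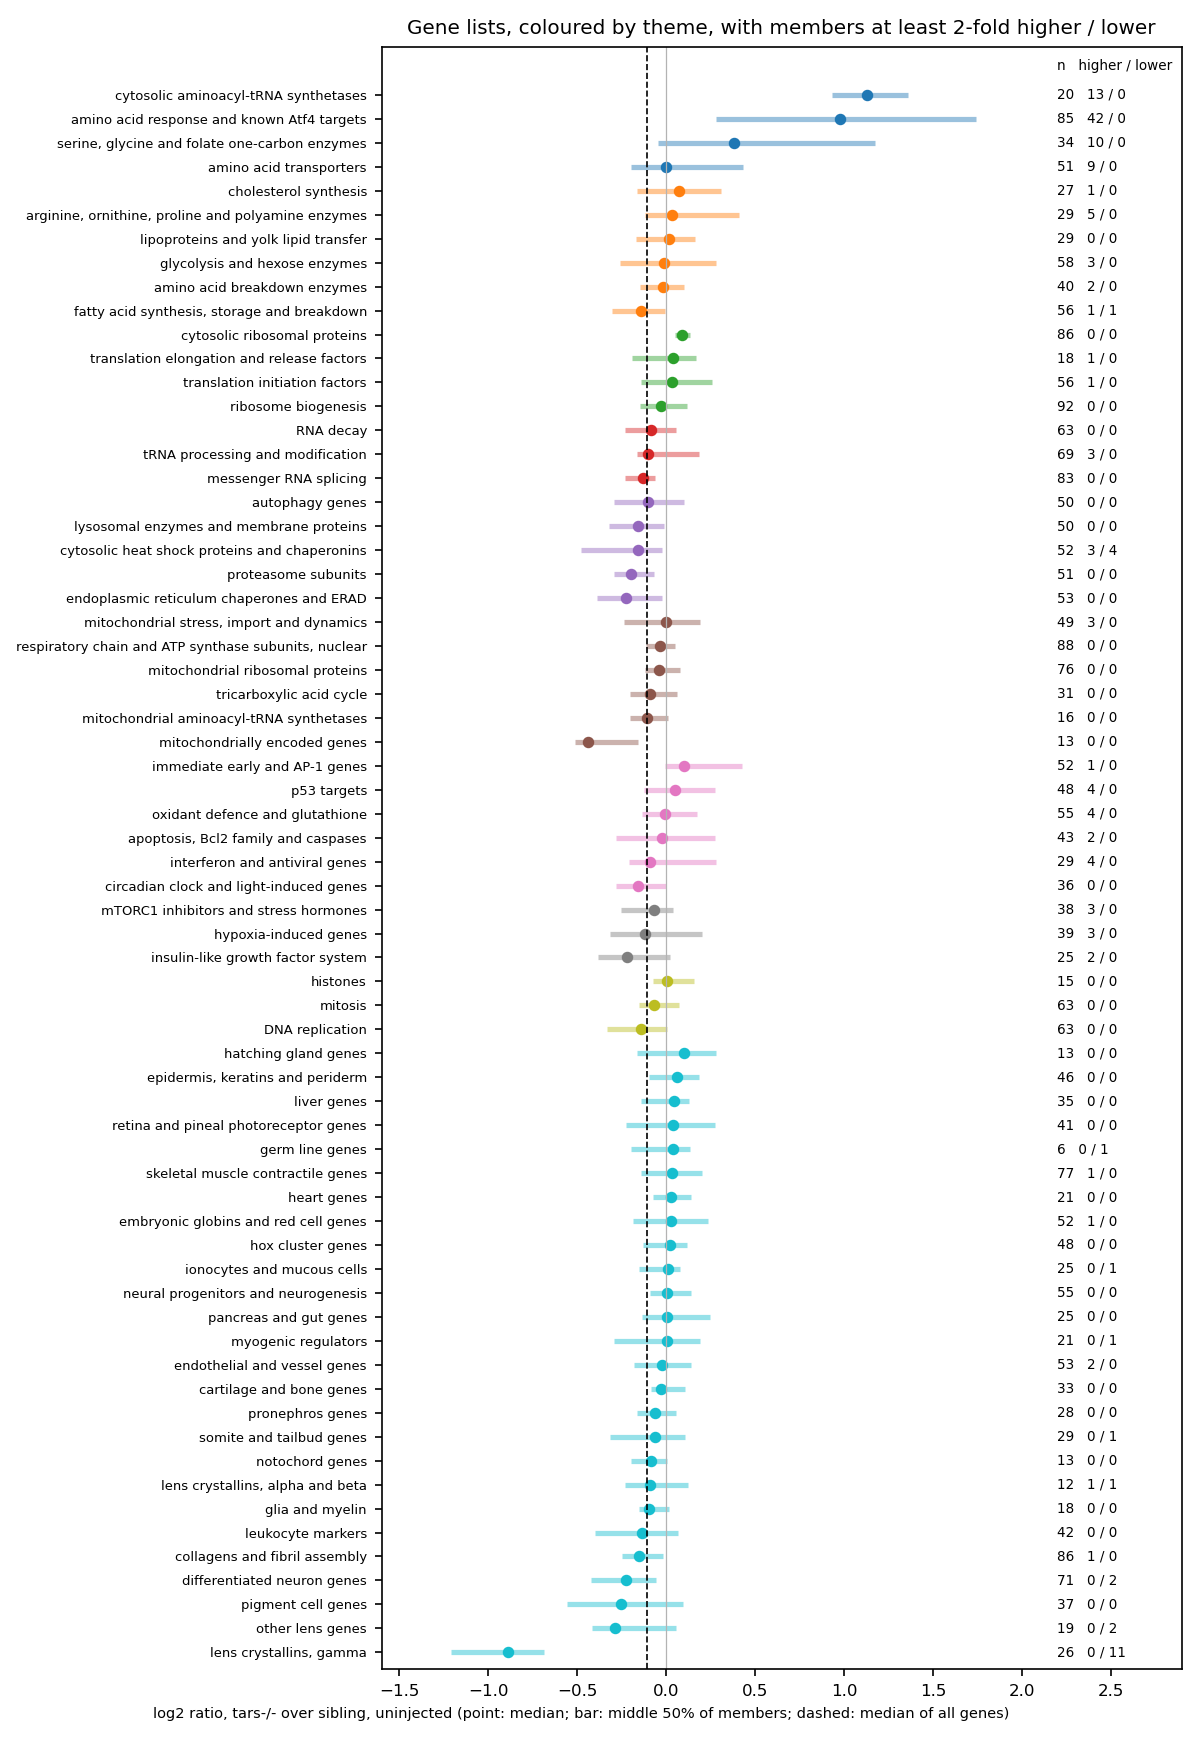
Median log2 ratio (points) and middle 50% of members (bars) of 66 gene lists in *tars*-/- against sibling embryos, uninjected, coloured by theme; the dashed line is the median of all genes, and the numbers at right give the members passing the abundance minimum and those at least 2-fold higher and lower. The synthetase and AAR lists stand at the right, at 1.13 and 0.98, and the gamma crystallins at the left, at −0.89.

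Methionine and folate enzymes held some of the largest differences. *mat2ab*, which codes for a methionine adenosyltransferase, the maker of the methyl donor S-adenosylmethionine, was at 145 CPM in *tars*-/- embryos and 15.2 CPM in siblings (9.48-fold, 8.71 to 10.3). It was at 31.7 CPM against 11.2 CPM with *gcn2* MO and at 162 CPM against 18.7 CPM with *perk* MO, so the libraries of both genotypes did not overlap. *mtr*, which codes for methionine synthase, was 3.03-fold higher (2.75 to 3.34), at 44.3 CPM against 14.6 CPM, and was also above all siblings in each *tars*-/- library. Such an order was found in 3.61% of all genes, and the uninjected pair that chose *mat2ab* and *mtr* is part of it. *gnmt*, for the glycine methyltransferase that uses S-adenosylmethionine, was at 93.6 CPM against 35.9 CPM (2.61-fold). The cytosolic serine hydroxymethyltransferase gene *shmt1* was at 165 CPM against 70.2 CPM. Of the 10 higher genes, *psat1*, *phgdh*, *aldh1l2*, *mthfd2* and *shmt2* belong to the AAR list as well. The lowest of the 34 members was *mthfd1a*, with a log2 ratio of −0.68. Outside this list, *pmt*, for a methyltransferase of phosphocholine synthesis that also uses S-adenosylmethionine, had the highest log2 ratio outside the AAR list among genes averaging 5 CPM or more. It was at 50.7 CPM in *tars*-/- embryos and 4.90 CPM in siblings (10.3-fold, 8.91 to 12.1). With *perk* MO it was at 59.3 CPM against 4.54 CPM, and with *gcn2* MO the *tars*-/- level was 9.14 CPM against 5.43 CPM.

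Amino acid transporters had a median near that of all genes (−0.00), with 9 of 51 members at least 2-fold higher and 0 lower. The higher ones outside the AAR list carry neutral amino acids. *slc1a4*, a carrier of alanine, serine, cysteine and threonine, was at 536 CPM in *tars*-/- embryos and 79.9 CPM in siblings (6.70-fold, 6.46 to 6.96). With *gcn2* MO it was at 120 CPM against 57.3 CPM, and with *perk* MO at 526 CPM against 66.8 CPM. *slc6a15*, a carrier of branched-chain amino acids and proline found in neurons, was 6.45-fold higher (6.03 to 6.90), at 164 CPM against 25.4 CPM. *slc7a10a* was at 48.6 CPM against 9.63 CPM, *slc1a5* at 212 CPM against 78.2 CPM and *slc38a5a* at 56.5 CPM against 24.6 CPM. The lowest member was *slc7a1*, with a log2 ratio of −0.57.

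Enzymes that break down or interconvert amino acids were mostly near the median of all genes, with a list median of −0.02 and 2 of 40 members at least 2-fold higher. One of them was *tdh*, for threonine dehydrogenase, which opens the breakdown of threonine, the amino acid that the missing synthetase uses. It was at 310 CPM in *tars*-/- embryos and 146 CPM in siblings (2.13-fold, 2.06 to 2.19), and in the injected embryos at 163 CPM against 121 CPM with *gcn2* MO and at 229 CPM against 144 CPM with *perk* MO. The related *tdh2* was 2.22-fold higher (1.91 to 2.60), at 14.0 CPM against 6.32 CPM, whereas *gcat*, for the next enzyme of the same route, was at 26.7 CPM against 29.5 CPM. *tdh2* and *gcat* belong to a list of threonine breakdown genes that was added after the values had been seen. *aspg*, for an asparaginase, was 6.10-fold higher (5.47 to 6.82), at 60.0 CPM against 9.84 CPM. Among the genes of arginine, ornithine, proline and polyamines 5 of 29 were higher, including *oat*, for ornithine aminotransferase, at 40.2 CPM against 9.66 CPM (4.16-fold, 3.72 to 4.67), and *cps1*, for a carbamoyl phosphate synthetase, at 9.05 CPM against 3.84 CPM. *cps1* had no such difference in injected embryos, with 26.8 CPM against 24.5 CPM under *gcn2* MO and 23.0 CPM against 20.7 CPM under *perk* MO.

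**Figure D4:**
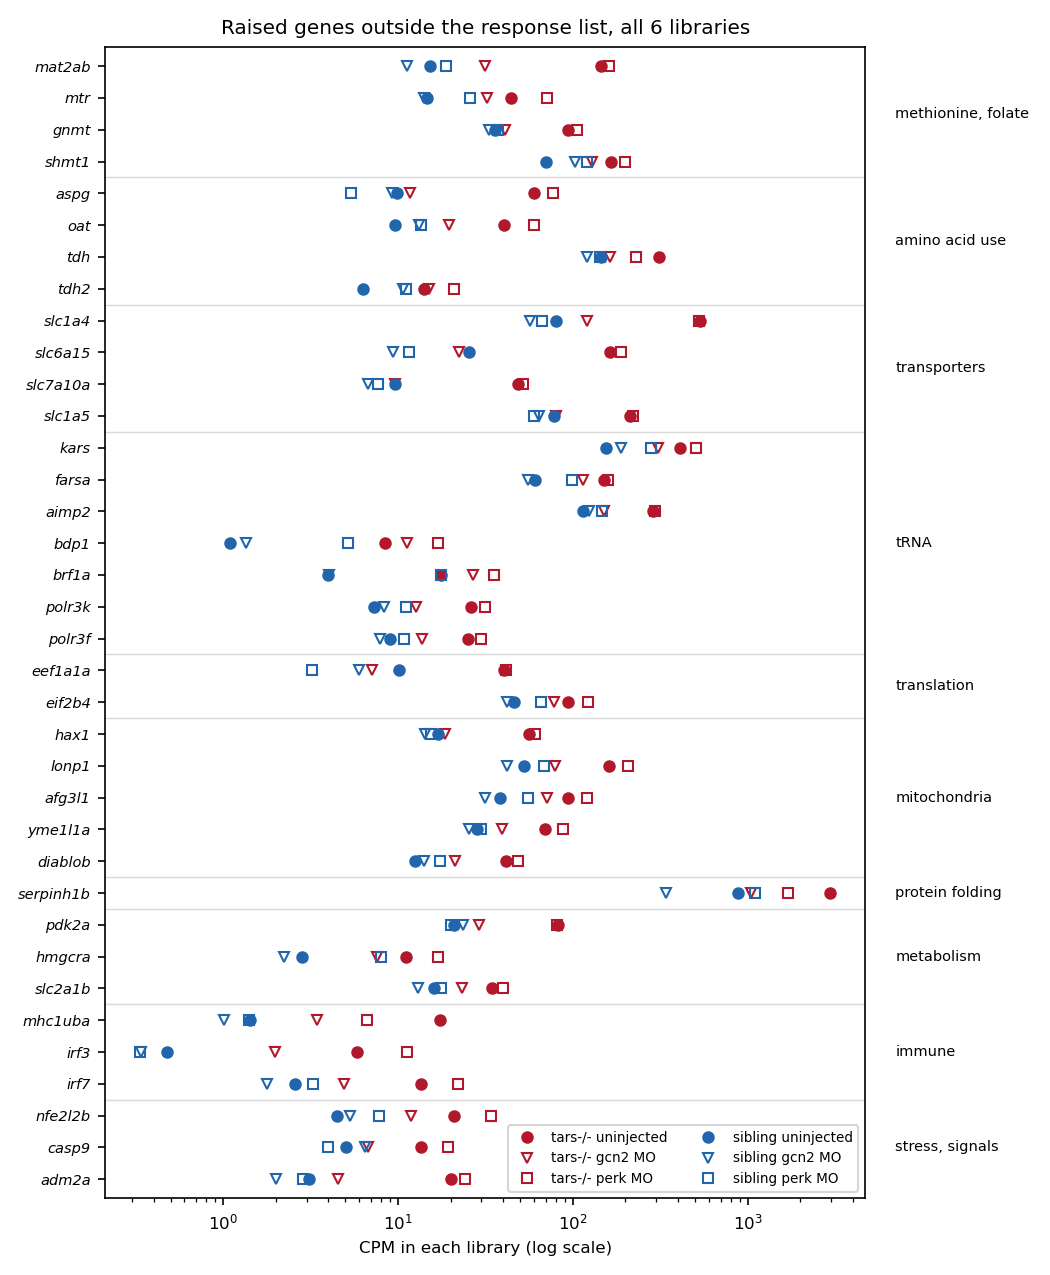
CPM (log scale) in each of the 6 libraries of 36 genes that were at least 2-fold higher in uninjected *tars*-/- embryos and lie outside the AAR list, by function; red marks are *tars*-/- and blue marks sibling libraries, filled when uninjected, triangles for *gcn2* MO and squares for *perk* MO. For *slc1a4* and *mat2ab* the *perk* MO libraries repeat the gap of the uninjected pair, while with *gcn2* MO the *tars*-/- level lies nearer to the siblings.

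Of the 20 cytosolic synthetase genes, counted without *tars*, 13 were at least 2-fold higher. Those outside the AAR list that passed 2-fold were *kars* (lysine, 2.64-fold), *farsb* and *farsa* (both subunits for phenylalanine, 2.56-fold and 2.46-fold), *vars* (valine, 2.12-fold) and *rars* (arginine, 2.06-fold). The lowest was *tarsl2*, whose interval includes 1. The 16 mitochondrial synthetases had a median of −0.11, the same as all genes, and ranged from −0.58 for *cars2* to 0.17 for *fars2*. Of 69 genes of tRNA processing and modification, 3 were at least 2-fold higher. *aimp2*, for a scaffold protein of the multi-synthetase complex, was at 286 CPM against 115 CPM (2.49-fold, 2.41 to 2.58). *tsen34*, for a subunit of the tRNA splicing endonuclease, was 2.18-fold higher, and *yrdc*, for an enzyme of threonyl-carbamoyl-adenosine formation in tRNA, which uses threonine, was 2.10-fold higher (1.81 to 2.44), at 14.6 CPM against 6.95 CPM.

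RNA polymerase III transcribes tRNA genes, and its factors were grouped after their values had been seen. The 27 genes of the enzyme and its initiation factors had a median of −0.02, with 4 members at least 2-fold higher. *bdp1*, a subunit of TFIIIB that is clone-named in the files, was at 8.43 CPM in *tars*-/- embryos and 1.09 CPM in siblings (7.76-fold, 5.62 to 10.9), and *brf1a*, for another TFIIIB subunit, was at 17.7 CPM against 3.97 CPM (4.45-fold, 3.73 to 5.34). With *gcn2* MO, *bdp1* was at 11.2 CPM against 1.36 CPM and *brf1a* at 26.7 CPM against 4.01 CPM. With *perk* MO the sibling levels were higher, so that *bdp1* was at 16.9 CPM against 5.18 CPM and *brf1a* at 35.3 CPM against 17.6 CPM. Unlike *slc1a4* or *pmt*, these genes thus had as large a ratio under *gcn2* MO as in uninjected embryos. The enzyme subunits *polr3k* (3.59-fold, 26.3 CPM against 7.33 CPM) and *polr3f* (2.82-fold, 25.3 CPM against 8.95 CPM) were higher too. With *gcn2* MO their ratios were smaller, at 1.53-fold for *polr3k* (12.7 CPM against 8.34 CPM) and 1.75-fold for *polr3f* (13.8 CPM against 7.89 CPM). *bdp1* is among the 40 genes nearest to *tars*, as given below. The lowest member was *gtf3c2*, with a log2 ratio of −0.44.

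The translation machinery differed little. Of 56 initiation factors only *eif2b4*, for a subunit of the factor that reloads eIF2 with GTP, passed 2-fold, at 93.6 CPM in *tars*-/- embryos against 46.1 CPM in siblings (2.03-fold, 1.92 to 2.15). The lowest of them was *eif4g3b*, at a log2 ratio of −0.44. Among 18 elongation and release factors *eef1a1a*, one of the genes for elongation factor 1 alpha, was 3.96-fold higher (3.54 to 4.43). It was at 40.4 CPM in uninjected *tars*-/- embryos against 10.2 CPM in siblings, at 41.5 CPM against 3.21 CPM with *perk* MO and at 7.12 CPM against 6.02 CPM with *gcn2* MO. The 86 cytosolic ribosomal protein genes had a narrow range, from −0.08 for *rps15a* to 0.42 for *rpl12*, with a median of 0.09 and all 86 above the median of all genes. This small offset was not shared by the injected pairs, where their medians were 0.05 with *gcn2* MO and −0.19 with *perk* MO, while those of all genes were 0.02 and 0.00. Log2 ratios also moved with gene length, from a median of −0.05 for genes under 1000 bases to −0.25 for those over 8000 bases, and the part of length in the ribosomal protein values was not tested. The 92 ribosome biogenesis genes had a median of −0.03 and the 83 splicing genes one of −0.13, with none at least 2-fold apart. The ribosome biogenesis median was 0.58 with *gcn2* MO and −0.84 with *perk* MO, a spread that the uninjected pair did not show.

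In the list of mitochondrial stress, import and dynamics, whose median was 0.00, 3 of 49 members were at least 2-fold higher, and all 3 are proteases. *lonp1*, for the Lon protease of the matrix, was at 161 CPM in *tars*-/- embryos and 52.6 CPM in siblings (3.07-fold, 2.92 to 3.23). *afg3l1*, clone-named in the files, was at 93.7 CPM against 38.5 CPM (2.43-fold, 2.29 to 2.59) and *yme1l1a* at 68.9 CPM against 28.4 CPM (2.42-fold, 2.26 to 2.60), and both code for inner membrane proteases. All 3 were above every sibling library in each *tars*-/- library, as the plot of raised genes by library shows. Among all genes 3.61% had that order, but it includes the uninjected pair that chose the 3 proteases, so the share is not a like comparison. A wider list of 36 mitochondrial proteases and their partners, added after the values had been seen, held 13 higher genes, of which 8 were copies of *htra2*. *hax1*, whose human product binds the protease HTRA2, was at 56.3 CPM against 16.9 CPM (3.33-fold, 3.05 to 3.64). The 13 *htra2* copies that passed the abundance minimum had log2 ratios of 0.33 to 2.26, and their summed level was 88.7 CPM against 39.1 CPM in siblings. It was 70.5 CPM against 29.6 CPM with *gcn2* MO, and with *perk* MO 87.7 CPM against 65.7 CPM, where 3 copies were lower. Reads may be shared among such near-identical copies, so the values of single copies are uncertain. The nuclear respiratory chain genes (88, median −0.03) and mitochondrial ribosomal proteins (76, median −0.04) had no member at least 2-fold apart.

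The 13 mitochondrially encoded genes were all lower in *tars*-/- embryos by CPM, from −0.73 for *mt-atp8* to −0.03 for *mt-co1*, and 3 of them were above the median of all genes. The 95% interval of their median, −0.54 to −0.09, includes the median of all genes (−0.11). Their summed level was 23181 CPM in *tars*-/- embryos and 26738 CPM in siblings. It was also lower with *gcn2* MO (23587 CPM against 28929 CPM) and with *perk* MO (24083 CPM against 26276 CPM), so the sums of both genotypes did not overlap. Of the single genes, 9 of 13 were below all siblings in each *tars*-/- library, against 4.65% of all genes. The uninjected pair is part of that order, and genes that share the mitochondrial genome are not independent measurements. The share of all genes is thus not a like comparison. *mt-co1* did not have it, and with *gcn2* MO was at 8437 CPM in *tars*-/- embryos against 8107 CPM in siblings.

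*serpinh1b*, for the collagen chaperone Hsp47, was at 2977 CPM in *tars*-/- embryos and 876 CPM in siblings (3.40-fold, 3.36 to 3.44). In injected embryos it was at 1046 CPM against 342 CPM with *gcn2* MO and at 1704 CPM against 1101 CPM with *perk* MO, so the ratio kept its direction while the level moved with injection. The 86 collagen and fibril genes had a median of −0.15, and *serpinh1b* was their only member at least 2-fold apart. Endoplasmic reticulum chaperones and degradation factors had a median of −0.22, with none of 53 at least 2-fold apart. The ends of that list were *xbp1*, at 0.98 (578 CPM against 293 CPM), and *creld2* at −0.78. *xbp1*, for the transcription factor of the Ire1 branch, is in the AAR list too. Its level was 303 CPM against 299 CPM with *gcn2* MO and 599 CPM against 270 CPM with *perk* MO. The 51 proteasome subunits had a median of −0.20, and 16 of them were above the median of all genes. Their median was −0.10 with *gcn2* MO and −0.40 with *perk* MO.

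Of the 52 genes listed as cytosolic heat shock proteins and chaperonins, 4 were at least 2-fold lower in uninjected *tars*-/- embryos and 3 were higher. The highest was the collagen chaperone gene *serpinh1b*, described above, which is also counted among the collagen and fibril genes. The 4 lower ones were of the Hsp70 family. *hsp70.3* was at 81.3 CPM in *tars*-/- embryos and 180 CPM in siblings (0.452, 0.432 to 0.472), and *hsp70l* at 18.3 CPM against 38.6 CPM (0.475, 0.432 to 0.521). These genes code for stress-inducible Hsp70, and their levels varied more among libraries of a genotype than between the uninjected libraries: *hsp70l* was at 7.52 CPM against 3.42 CPM with *gcn2* MO and at 0.842 CPM against 5.54 CPM with *perk* MO. A member named *hspa1b* by the gene table was at 3.92 CPM against 8.42 CPM, and a further Hsp70-family gene with no symbol in the files was at 1.64 CPM against 3.97 CPM. The small heat shock genes *hspb9* (9.14 CPM against 2.63 CPM) and *hspb11* (5.81 CPM against 2.10 CPM) were higher. With *gcn2* MO *hspb9* was at 5.60 CPM against 4.35 CPM, and with *perk* MO it was lower, at 7.11 CPM against 8.25 CPM. *hspb11* was at 4.88 CPM against 1.78 CPM with *gcn2* MO and at 5.30 CPM against 4.11 CPM with *perk* MO. Over all 52 genes of this list, *serpinh1b* included, the median was −0.16.

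Some metabolic genes outside amino acids passed 2-fold, where 1.11% of all genes were at least 2-fold higher and 0.568% lower. Of 58 genes of glycolysis and hexose use 3 were higher: *pdk2a*, for a kinase that turns off pyruvate dehydrogenase (81.8 CPM in *tars*-/- embryos against 20.9 CPM, 3.92-fold), the glucose carrier *slc2a1b* (34.5 CPM against 16.1 CPM) and *pfkfb4a*, for a regulator of phosphofructokinase (17.8 CPM against 8.32 CPM). *pdk2a* had the same gap with *perk* MO, at 81.0 CPM against 20.1 CPM, and a small one with *gcn2* MO, at 29.0 CPM against 23.4 CPM. In cholesterol synthesis, *hmgcra*, for the rate-limiting HMG-CoA reductase, was the only one of 27 genes at least 2-fold apart (11.1 CPM against 2.81 CPM, 3.94-fold, 3.18 to 4.91), and the list median was 0.07. Among 56 fatty acid genes *fabp7b*, for a fatty acid binding protein, was higher (5.44 CPM against 1.90 CPM) and *dgat2*, for the last enzyme of triglyceride synthesis, was lower (11 CPM against 25.5 CPM, 0.432). The injected siblings had 21.2 CPM and 14.4 CPM of *dgat2*, and the *tars*-/- libraries stayed between 11 CPM and 11.5 CPM.

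Of 29 interferon and antiviral genes 4 were at least 2-fold higher, while the list median was −0.09. *mhc1uba*, for an MHC class I chain, was at 17.4 CPM in *tars*-/- embryos and 1.42 CPM in siblings (12.3-fold, 9.34 to 16.5). *irf3* was at 5.84 CPM against 0.480 CPM (12.2-fold, 7.59 to 20.6) and *irf7* at 13.5 CPM against 2.58 CPM (5.22-fold, 4.20 to 6.53), and both code for transcription factors of the interferon response. With *perk* MO *irf3* was at 11.2 CPM against 0.334 CPM and *irf7* at 22.1 CPM against 3.27 CPM, and with *gcn2* MO they were at 1.99 CPM against 0.339 CPM and at 4.91 CPM against 1.78 CPM. Thus *irf3*, *irf7* and *mhc1uba* were higher in all 3 *tars*-/- libraries than in any sibling library. Of all genes 3.61% had this order, but the uninjected pair that chose the 3 genes is part of it, so the comparison is not a like one. The ubiquitin-like *isg15* had few reads, at 1.89 CPM against 0.202 CPM. It did not have this order, since the *perk* MO siblings were at 2.24 CPM. The lowest member was *tnfaip3*, at −0.81. The 42 leukocyte markers had a median of −0.14 with none at least 2-fold apart, and their summed level was 1887 CPM in *tars*-/- embryos against 1960 CPM in siblings.

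Among stress regulators, *nfe2l2b*, for an Nrf2-type factor of the oxidant response, was at 21.0 CPM in *tars*-/- embryos and 4.45 CPM in siblings (4.71-fold, 3.99 to 5.58). The other 3 higher members of the 55 oxidant defence genes were *chac1*, *slc7a11* and *gsto1*. Of these, *chac1* and *slc7a11* are in the AAR list too. *gsto1* lay near the abundance minimum, at 1.95 CPM against 0.683 CPM, and at 0.622 CPM against 0.678 CPM with *gcn2* MO. In the p53 target list *gadd45ba*, for a growth arrest protein, was at 38.6 CPM against 12.6 CPM. The remaining 3 higher members of the 48, *sesn2*, *cdkn1a* and *gadd45ab*, are in the AAR list too. Of 43 apoptosis genes *diablob*, whose product counters caspase inhibitors after release from mitochondria, was 3.33-fold higher (3.002 to 3.69), at 41.7 CPM against 12.5 CPM, and *casp9*, for the caspase activated by cytochrome c, was 2.67-fold higher (2.26 to 3.17), at 13.5 CPM against 5.03 CPM. *casp9* was at 19.3 CPM against 3.97 CPM with *perk* MO and at 6.72 CPM against 6.47 CPM with *gcn2* MO. The list median was −0.03. *adm2a*, for the peptide hormone adrenomedullin 2, was 6.47-fold higher (5.33 to 7.89), at 20.1 CPM against 3.11 CPM. DNA replication (63 genes, median −0.14) and mitosis (63 genes, median −0.07) had no member at least 2-fold apart.

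The samples were whole embryos, and markers of muscle, heart, neurons, red cells, lens, epidermis, endothelium and notochord were all detected. Of 26 tissue lists 25 had a median within 0.25 of that of all genes. Muscle contractile genes had a median of 0.03, with *tcap*, for a small Z-disc protein, the only one of 77 at least 2-fold apart (5.70 CPM in *tars*-/- embryos against 0.986 CPM), and its ratio turned round with *perk* MO (3.94 CPM against 7.55 CPM). Red cell genes had a median of 0.02, and *drl*, for a zinc finger protein of blood and vessel progenitors, was at 10.6 CPM against 3.69 CPM. Endothelial genes had a median of −0.02, with *vegfaa*, for the main angiogenic growth factor and also in the AAR list, at 44.8 CPM against 11.7 CPM, and *esm1*, a gene of sprouting endothelium, at 10.3 CPM against 4.45 CPM (2.31-fold, 1.93 to 2.79). The other 51 endothelial genes were less than 2-fold apart. *bcan*, for the brain matrix proteoglycan brevican, was 6.31-fold higher (5.51 to 7.25), at 39.6 CPM against 6.27 CPM, and the mitochondrial carrier gene *slc25a47a* was at 12.1 CPM against 1.62 CPM. *lrrc58a* was at 12.2 CPM against 1.01 CPM, and at 22.3 CPM against 1.14 CPM with *perk* MO, but at 1.46 CPM against 1.24 CPM with *gcn2* MO. The other 4 genes among the 15 highest outside the AAR list are unnamed or clone-named, with log2 ratios of 2.30 to 2.92.

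The lens was where a tissue list stood apart. Gamma crystallins are the soluble proteins of differentiating lens fibres, and 25 of 26 were lower in *tars*-/- embryos, 11 of them at least 2-fold, and 3 were above the median of all genes. Their summed level was 1355 CPM in *tars*-/- embryos and 2477 CPM in siblings. It was also lower with *gcn2* MO (1112 CPM against 1465 CPM) and with *perk* MO (859 CPM against 1319 CPM), and 23 and 25 of the 26 genes were lower in those pairs. However, the uninjected *tars*-/- library, at 1355 CPM, was above the *perk* MO siblings. All 3 *tars*-/- libraries lay below all 3 siblings in 12 of the 26 genes, against 4.65% of all genes. The list was set apart by the uninjected pair, which is part of that order, so the share of all genes is not a like comparison. The lowest log2 ratio was that of *crygm2d16*, at 3.75 CPM against 17.3 CPM (0.217, 0.179 to 0.262), and an abundant member, *crygm2d20*, was at 119 CPM against 295 CPM (0.403, 0.389 to 0.417). The single member that was not lower was *crygmx*, at 54.4 CPM against 50.8 CPM. The *crygm2d* genes are near-identical copies, so reads may be shared among them, and the members are not independent measurements. In whole embryos fewer lens fibre cells and less RNA per cell cannot be told apart. Alpha and beta crystallins had a median of −0.09 and a summed level of 1326 CPM against 1261 CPM, with *crybb1* higher (80.4 CPM against 29.6 CPM) and *crybb1l3* lower (0.846 CPM against 2.60 CPM). *crybb1* was at 339 CPM against 195 CPM with *gcn2* MO and at 213 CPM against 348 CPM with *perk* MO. Among 19 other lens genes *lgsn* (0.620 CPM against 1.90 CPM) and *grifin* (1.80 CPM against 4.15 CPM) were at least 2-fold lower, and *foxe3*, a lens epithelium factor, was highest at 0.58.

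**Figure D5:**
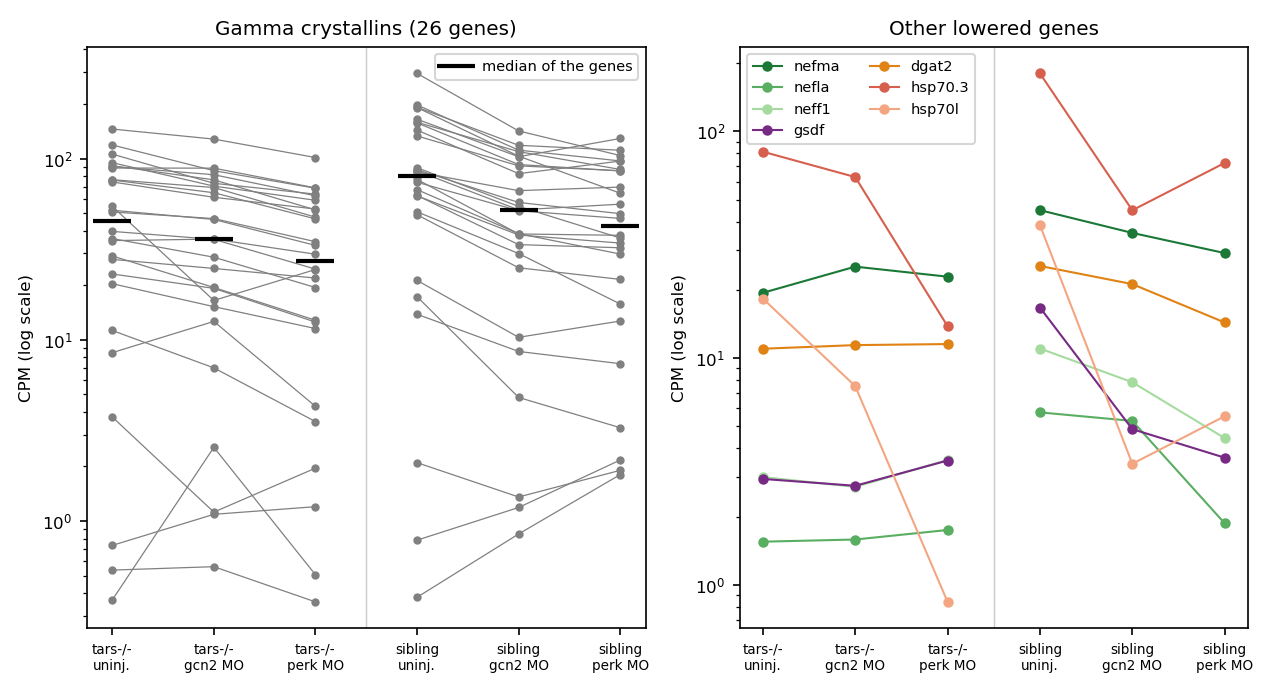
CPM (log scale) in the 6 libraries of the 26 gamma crystallins (left, one line a gene, bars at the median) and of 7 other genes that were lower in uninjected *tars*-/- embryos (right); lines join libraries of the same genotype, and the *neff1* and *gsdf* lines coincide in the *tars*-/- libraries. The sibling uninjected library holds the highest values, 295 CPM for *crygm2d20* and 180 CPM for *hsp70.3*, and *gsdf* is at 4.86 CPM and 3.64 CPM in the injected siblings.

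Of the differentiated neuron genes, *nefma* and *nefla*, for neurofilament proteins of axons, were at least 2-fold lower, as was *neff1*, a related filament gene in no list. *nefma* was at 19.4 CPM in *tars*-/- embryos and 44.9 CPM in siblings (0.432, 0.395 to 0.472), *nefla* at 1.55 CPM against 5.76 CPM (0.269, 0.197 to 0.363) and *neff1* at 2.99 CPM against 11.02 CPM (0.271, 0.217 to 0.336). All 3 were lower than every sibling library in each *tars*-/- library, but with *perk* MO the gaps were small, at 1.75 CPM against 1.87 CPM for *nefla*. Of all genes 4.65% had this order. The uninjected pair that chose the 3 genes is part of it, so that share is not a like comparison. The 71 differentiated neuron genes had a median of −0.22, and 21 of them were above the median of all genes. The highest was *inaa*, for another neuronal intermediate filament, at 0.29 (2.37 CPM against 1.85 CPM). The list median was −0.42 with *gcn2* MO and 0.29 with *perk* MO, so its direction was not shared by the 3 pairs. Neural progenitor genes had a median of 0.01.

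Among genes averaging 5 CPM or more, the lowest log2 ratio with the pseudocount belonged to *gsdf*, for a growth factor of the TGF-β family made by gonadal somatic cells. It was at 2.93 CPM in *tars*-/- embryos and 16.7 CPM in siblings, but at 4.86 CPM and 3.64 CPM in the injected siblings. The beta-defensin-like gene *defbl1* was at 3.50 CPM against 10.04 CPM (0.348, 0.282 to 0.427) and lower in all 3 *tars*-/- libraries than in any sibling library. That order was found in 4.65% of all genes, and the uninjected pair that chose *defbl1* is part of it. *mxra5b*, for a matrix protein, was at 5.27 CPM against 12.9 CPM, and *muc5.1*, for a mucin, at 35.6 CPM against 72.9 CPM, and with injection each had a pair in which *tars*-/- was higher. The regulators *pax3b* (1.35 CPM against 3.34 CPM) and *tbx16* (0.310 CPM against 1.29 CPM) were lower at levels near the abundance minimum.

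Embryos selected as homozygous mutants share the chromosome segment around the mutation, so the 2-fold genes were counted by chromosome. Of 16917 genes placed by name in the reference gene table (GRCz12tu, another assembly than that of the files, used for gene order only), 990 lie on the chromosome of *tars*, and 24 of them (2.42%) were at least 2-fold apart, against 1.59% on the other 24 chromosomes, which ranged from 0.72% to 3.27%. Among the 40 genes nearest to *tars* in order, 3 were at least 2-fold higher, namely *bdp1*, *hspb11* and *dmrt1*, a gene of sex determination named after its values were seen (3.81 CPM in *tars*-/- embryos against 1.37 CPM). The part of linked variants in these differences was not tested.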

How the data were processed

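RNA of whole embryos was extracted with TRIzol, made into libraries with a NEBNext Ultra kit and sequenced on an Illumina instrument. The submitters' processing notes name HISAT2 2.0.5, SAMtools 1.7 and the GRCz10 genome, to which the authors mapped the clean reads, and deposited the read count per gene from HTSeq. The deposited FPKM equals the count over gene length and library total within a relative deviation of 5.03e-06, and was used only for that check. The strand setting and the handling of reads with several positions are not given in the sources used here. Total counts ranged from 29949451 to 47516784 reads over the 6 libraries, with 35457623 reads in *tars*-/- and 39551625 reads in sibling uninjected embryos.

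CPM was the count over the library total, and log2 ratios used CPM + 0.5 for genes averaging 1 CPM or more across the 6 libraries. Ratios have exact 95% Clopper-Pearson intervals of the counts. TMM factors came from edgeR 4.0.16 in R 4.3.3. Everything else used Python 3.11.15, numpy 2.4.6, pandas 2.3.3, scipy 1.17.1 and matplotlib 3.10.9. The calculation was tested on simulated data. Gene names are those of the files. Of 4092 clone-named or unnamed genes, 3090 were named by the gene name table.

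Members and lists were chosen with earlier results of these data known. Genes named in the text were *tars*, the 15 highest and 15 lowest log2 ratios outside the AAR list among genes averaging 5 CPM or more, and of each list the members at least 2-fold apart with its highest and lowest member. Any other named gene was chosen after its values were seen. A list member that the rule names is not reported here. Lists of RNA polymerase III, mitochondrial proteases, *htra2* copies, threonine breakdown, and cap'n'collar factors with small Mafs were added after the values were seen. Of the last, *nfe2l2b* and *nfe2l1a* were the 2 of 16 genes at least 2-fold higher, and the list median was −0.08. Alternatives were other scalings, pseudocounts, minimum levels, thinning and thresholds.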

Additional observations from a re-analysis of the deposited data

Results flagged for a closer look

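Of the 213 higher genes, 1 was at least 2-fold lower with *gcn2* MO and 9 with *perk* MO, where 1.17% and 2.01% of all genes were. Of the 109 lower genes, 7 were at least 2-fold higher with *gcn2* MO and 1 with *perk* MO, where 1.85% and 3.39% of all genes were. Among the genes chosen for naming and with over 3 reads in each library, each of the following was at least 2-fold apart in the uninjected pair and at least 2-fold apart in the opposite direction in an injected pair. There was 1 library per condition, so these differences between pairs were not tested. One of the *htra2* copies had a log2 ratio of 1.46 in the uninjected pair and −1.22 with *perk* MO, at 1.56 CPM in *tars*-/- embryos and 4.31 CPM in siblings. *cdkn1a*, for the cell cycle inhibitor p21, had a log2 ratio of 1.35 in the uninjected pair, 2.60 under *gcn2* MO and −2.03 under *perk* MO. Its level was 7.56 CPM in uninjected *tars*-/- embryos against 2.65 CPM in siblings, 68.3 CPM against 10.8 CPM with *gcn2* MO and 16.6 CPM against 69.5 CPM with *perk* MO. The heat shock gene *hsp70l* had log2 ratios of −1.05 without injection, 1.03 under *gcn2* MO and −2.17 under *perk* MO. The complement gene *c3a.3* was at 3.10 CPM in uninjected *tars*-/- embryos and 7.48 CPM in siblings, but its log2 ratio with *gcn2* MO was 2.82, at 12.3 CPM in *tars*-/- embryos and 1.30 CPM in siblings. The clone-named gene si:ch73-65n21.1 had a log2 ratio of −2.01 in the uninjected pair and 4.43 with *gcn2* MO. Its neighbour in name, si:ch73-65n21.2, falls outside this set, with 0 reads in uninjected *tars*-/- embryos and 1.47 CPM in siblings. With *gcn2* MO it was at 21.98 CPM in *tars*-/- embryos and 1.41 CPM in siblings.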

How the results depend on the processing

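The count of 213 higher genes stayed within 1.5 times under every alternative but a 1.5-fold threshold, which gave 555. The count of 109 lower genes moved more, to 58 under TMM scaling, 71 under upper-quartile scaling, 218 with a pseudocount of 0.1 CPM, 24 with a pseudocount of 2 CPM, 39 with a mean of at least 5 CPM and 1059 at 1.5-fold. The share of 2-fold genes that were higher was 66.1%, and it was 55.3% with a pseudocount of 0.1 CPM, 86.6% with one of 2 CPM, 81.1% with a mean of at least 5 CPM and 34.4% at 1.5-fold. The median of all genes changed sign under TMM scaling, to 0.0014. Relative to that of all genes, list medians moved past their interval in 2 of 639 values over 71 lists, to 0.17 for ribosomal proteins and −0.050 for splicing, both with no filter but 1 read. Of 146 named genes at least 2-fold apart, 110 were so under every alternative. A pseudocount of 2 CPM took 32 below 2-fold, TMM scaling 10 and upper-quartile scaling 7. The cause of these shifts was not tested.

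No paired analysis was possible because the uninjected comparison had 1 library per genotype, which also leaves no replicate to leave out. A fit of genotype over the 3 pairs, with injection as a block, was not run. Promoter motifs and the share of threonine in proteins were not analysed here. Thinning to the smaller total gave 108 lower genes. Differences between embryos and preparations cannot be told apart from genotype with 1 library each.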
